A study of Mus musculus with 6 samples.

Results

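Cells defined by a set of 6 marker genes, among them the relaxin receptor gene Rxfp1 and the teashirt transcription factor gene Tshz2, were examined in single-cell data of the hippocampal CA1 region. Barcodes with more than 500 and at most 8000 detected genes and at most 40% mitochondrial UMIs were kept. A barcode entered the set when it held a unique molecular identifier (UMI, one per captured transcript) of at least 3 of the 6 genes Rxfp1, Tshz2, Tshz3, Garnl3, Ipcef1 and Plekha7. It was left out when it held at least 3 of the 7 deep-layer genes Hs3st4, Tle4, Nxph3, Rprm, Tbr1, Sox5 and Fezf2, or any UMI of Gad1 or Gad2, which make the inhibitory transmitter GABA. This gave 76 cells among 1632 barcodes that passed the filters and 6000 barcodes in all. Their proposed label was Rxfp1 and Tshz2 glutamatergic neurons.

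The cells came from male C57Bl6 mice injected once intraperitoneally at postnatal day 28 with placebo (mice 1, 3 and 5) or with 5000 IU/kg erythropoietin (EPO; mice 2, 4 and 6), and CA1 was dissected 6 h later. Drop-seq was used, in which each cell shares a droplet with a barcoded bead. The labels also carry D1 (placebo 1 and 3, EPO 2) or D2 (placebo 5, EPO 4 and 6), whose meaning is not stated. The tissue was digested with papain without a sort or gate named in the sources, and each mouse gave its own library.

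Rxfp1 encodes a G protein-coupled receptor for the peptide hormone relaxin. The teashirt genes Tshz2 and Tshz3 encode zinc finger transcription factors, and Tshz2 is known as a marker of near-projecting neurons in deep cortical layers. Excitatory neurons load glutamate into vesicles with transporters encoded by Slc17a7 (VGLUT1), which dominates in neocortical and hippocampal pyramidal cells, or by Slc17a6 (VGLUT2), which dominates in the thalamus and is also found in the subiculum, the region that borders CA1.

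The 76 cells were spread unevenly over the mice. Placebo 1, 3 and 5 gave 10, 2 and 11 of them, and EPO 2, 4 and 6 gave 23, 21 and 9. Placebo 3 was below the minimum of 5 cells per mouse and enters no fit across genes, so these fits rest on 5 mice. The cells held 519912 UMIs, with a median of 4088 UMIs and 1690 genes per cell and a range of 1155 to 35526 UMIs, and 13 of them had at most 1000 genes. The 5 deepest cells carried 30.6% of these UMIs, so summed values lean on few cells. No barcode was shared between marker-defined cells of different mice, but 6 marker-defined barcodes were also found among the other barcodes of another mouse. Among the barcodes of all mice, 67 occurred in more than 1 mouse. For comparison, each cell was paired within its mouse with the other Slc17a7-positive cell, free of Gad1 and Gad2, of nearest UMI total. The 76 matched cells, drawn from 306, had a median of 4286.5 UMIs and 1685 genes.

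**Figure D1:**
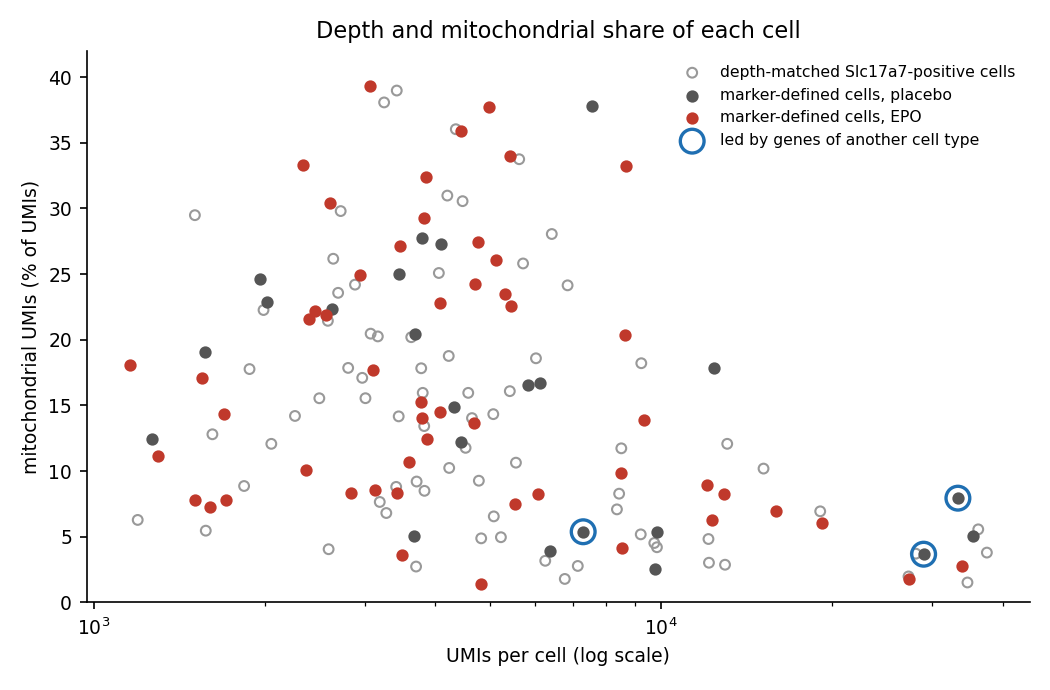
UMIs per cell (log scale) against the mitochondrial share of UMIs in percent, 1 point per cell, for the 76 marker-defined cells (filled, by treatment) and the 76 depth-matched Slc17a7-positive cells (open). Large rings mark the 3 placebo barcodes led by genes of another cell type, at 7286, 29026 and 33359 UMIs.

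The glutamatergic part of the label held for many but not for all of the cells. Slc17a7 was seen in 30 of 76 cells and Slc17a6 in 34, with 20 cells holding both and 32 holding neither. Slc17a8, the third vesicular glutamate transporter gene, had 0 UMIs in 76 cells; the exact 95% interval for the share of cells with a UMI reaches 4.74%, which limits detection at this depth and not expression (intervals here cover counting error only). At least 3 other glutamatergic markers were present in 52 of the 76 cells, against 59 of the 76 matched cells. The 32 cells with neither Slc17a6 nor Slc17a7 were shallower, with a median of 3523.5 UMIs against 5475.5 in the 44 cells with either. Their median mitochondrial share was also higher, at 19.7% against 9.21%. GABAergic markers were few: the 14-gene list summed to 22 UMIs (42.3 CPM) with 6 genes at 0, against 10 UMIs (18.8 CPM) with 9 genes at 0 in matched cells, and Gad1 and Gad2 were removed by the rule in both. The cells are therefore named here by their rule, as marker-defined cells.

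Of the 76 barcodes, 3 were led by another cell type, all of them in placebo mice. In placebo 1, a barcode of 33359 UMIs held 4389 UMIs (13.2%) of the 10 oligodendrocyte markers, and in placebo 5 a barcode of 7286 UMIs held 646 of them (8.87%). A further barcode of placebo 5 with 29026 UMIs carried 128 UMIs of Ccdc153, 88 of Rarres2, 67 of Tmem212 and 29 of Foxj1, genes of ciliated ependymal cells. Counts of genes called over all genes are given with and without these 3 barcodes. For lists and single genes, only some results are also given without them. Glial transcripts were not confined to them: 43 marker-defined cells, these 3 included, and 38 matched cells held at least 3 glial or endothelial markers. No doublet caller was run.

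The 6 genes that chose the cells are described first, without a test. Tshz2 was the leading gene, with a UMI in 74 of 76 cells and 425 UMIs in all. Its level, in counts per 1000000 UMIs of the summed cells (CPM), was 735, 445 and 701 in placebo 1, 3 and 5 and 854, 1063 and 695 in EPO 2, 4 and 6. Every mouse was thus high, and matched cells of the same mice lay between 0 and 174 CPM. Rxfp1 was patchier, with a UMI in 38 cells, 37 of which also held Tshz2. Its level was 54.5, 89.0 and 319 CPM in placebo 1, 3 and 5 and 386, 218 and 180 CPM in EPO 2, 4 and 6, so placebo 1 was the lowest and EPO 2 and placebo 5 the highest, with the treatments overlapping. Tshz3 was found in 51 cells at 89.0 to 244 CPM per mouse.

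Garnl3, which encodes a protein with a GTPase-activating domain for Rap-type small GTPases, was present in 37 cells at 38.2 to 267 CPM per mouse. Plekha7, an adherens junction protein gene, was present in 36 cells at 36.3 to 166 CPM. Ipcef1, whose product binds cytohesin exchange factors, was the sparsest of the 6, with a UMI in 24 cells at 16.4 to 115 CPM. In EPO 2 its level lay below that of the matched cells (16.4 against 23.3 CPM), and Plekha7 was nearly equal in the 2 cells of each kind of placebo 3 (89.0 against 88.1 CPM). In the mouse genome (GRCm38, GENCODE vM21) these protein-coding genes lie on 4 chromosomes, Rxfp1 at chr3:79641611-79737880, Tshz2 at chr2:169633013-170071816, Tshz3 at chr7:36698118-36773553, Garnl3 at chr2:32986224-33131654, Ipcef1 at chr10:6885796-7052478 and Plekha7 at chr7:116123485-116308376.

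Most cells sat at the threshold. Exactly 3 marker genes were found in 51 cells, 4 in 19, 5 in 5 and all 6 in 1 cell. Just outside, 110 barcodes held exactly 2 marker genes, with a median of 3019 UMIs against 3769 UMIs in the 51 cells just inside, and a Slc17a7 UMI in 30.9% against 39.2%. A further 45 barcodes with at least 3 markers were left out for their deep-layer genes and 8 for a UMI of Gad1 or Gad2. Such counts were also seen in cells of another type, and their source was not tested. Among 186 oligodendrocyte-like cells (median 4480.5 UMIs), which should lack these genes, 11.3% held Tshz2 and 1.08% held Rxfp1, while 2 cells held at least 3 of the 6 markers. The shallower of these 2 had 7286 UMIs, the total of 1 of the 3 marker-defined barcodes led by another cell type.

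To see whether the 6 genes went together, each was left out in turn and cells were chosen by at least 3 of the other 5. Among 27 cells chosen without Tshz2, 92.6% held Tshz2, against 29.6% of their depth-matched cells. Tshz3 was found in 44.4% of the 45 cells chosen without it, against 8.89%, and Plekha7 in 29.8% of 57 cells, against 8.77%. Rxfp1 was found in 29.6% of 54 cells, against 18.5%, and Garnl3 in 29.1% of 55 cells, against 18.2%. Ipcef1 was found in 13 of 65 cells, against 9.23%. These shares describe cells whose markers had been found by an earlier clustering of overlapping cells, and the genes were not tested against each other.

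**Figure D2:**
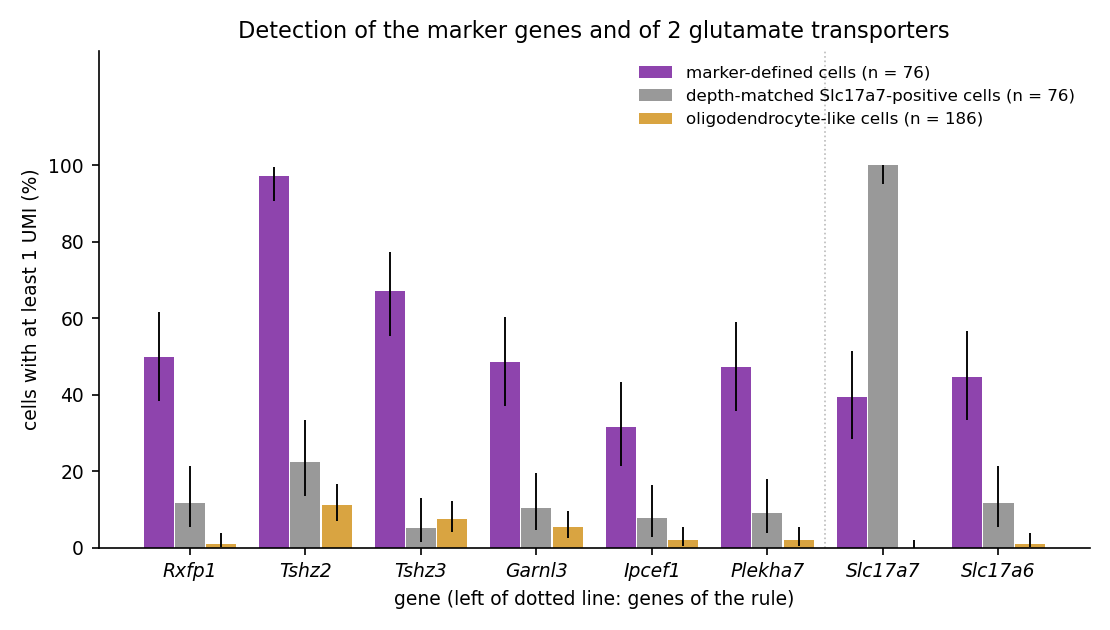
Percent of cells with at least 1 UMI of each gene in 76 marker-defined cells, 76 depth-matched Slc17a7-positive cells and 186 oligodendrocyte-like cells; bars start at 0 and lines are exact 95% intervals for counting error. The first 6 genes chose the cells and Slc17a7 chose the matched cells, whereas Slc17a6 was in neither rule and was found in 44.7%, 11.8% and 1.08% of cells.

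Whether EPO changed how frequent these cells were was asked per mouse. They made up 3.64%, 2.22% and 3.45% of filtered barcodes in placebo 1, 3 and 5 and 9.09%, 5.19% and 3.10% in EPO 2, 4 and 6. The mean was 3.10% ± 0.768 (SD, n = 3) with placebo and 5.79% ± 3.04 (SD, n = 3) with EPO. EPO 2 and 4 lay above every placebo mouse, but EPO 6 lay within the placebo range. The difference of 2.69 percentage points did not pass (two-sided exact permutation test, p = 0.3, smallest possible p 0.1). It was 6.16 points within D1, where EPO is a single mouse, and 0.696 points within D2, where placebo is a single mouse. Without the 3 barcodes led by another cell type, the placebo mean was 2.77% and the difference 3.02 points (two-sided exact permutation test, p = 0.2).

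The share among glutamatergic cells, here a short name for marker-defined plus other Slc17a7-positive cells, varied more. Marker-defined cells were counted whether or not they held a glutamate transporter gene. It was 14.1%, 16.7% and 18.6% in placebo 1, 3 and 5 and 37.1%, 21.9% and 11.0% in EPO 2, 4 and 6, so the EPO mice held both the highest and the lowest value. The mean was 16.5% ± 2.29 (SD, n = 3) with placebo and 23.3% ± 13.1 (SD, n = 3) with EPO (two-sided exact permutation test, p = 0.5). The difference of 6.85 points was 21.7 points within D1 and -2.22 points within D2, and without EPO 2 it was -0.0398 points. Without the 3 barcodes led by another cell type, the placebo mean was 15.1% and the difference 8.21 points (two-sided exact permutation test, p = 0.4).

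**Figure D3:**
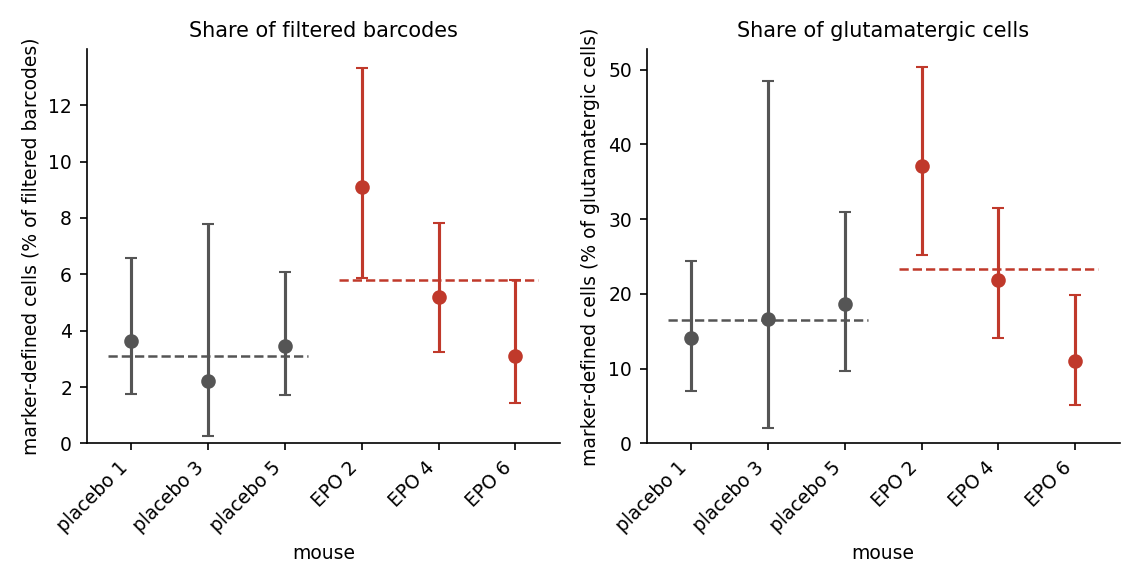
Marker-defined cells as a percentage of filtered barcodes (left) and of glutamatergic cells (right) in each mouse, with exact 95% intervals for counting error; dashed lines are the means of 3 mice. EPO 2 is highest in both panels, at 9.09% and 37.1%, while EPO 6, at 3.10% and 11.0%, lies inside or below the placebo range.

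Outside the 16 genes used to choose either class, the marker-defined cells differed widely from their matched Slc17a7-positive neighbors. Counts were summed per mouse and class and compared with the mouse as a block (edgeR quasi-likelihood test, Benjamini-Hochberg adjustment). Of 2238 genes tested, 169 passed an adjusted p of 0.05 (7.55%), 60 of them higher (2.68%) and 109 lower (4.87%) in marker-defined cells. Without the 3 barcodes led by another cell type, 66 were higher and 88 lower among 1588 genes, 118 of them shared with the first set. DESeq2 called 32 higher and 53 lower. Matching on the mitochondrial share as well as on depth left 24 higher and 50 lower. That matching narrowed the gap in mitochondrial share but did not close it (15.8% against 12.7%, means of the mouse medians). Keeping only the marker-defined cells with a Slc17a7 UMI left 24 higher and 21 lower among 1042 genes in 3 mice. Since the markers came from a clustering of overlapping cells, the p-values compare cells chosen by these markers with other cells in these mice and are not evidence from new cells.

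Fut9 and Hlf led the genes that were higher. Fut9, a fucosyltransferase that makes the Lewis X glycan, reached 653, 89.0 and 599 CPM in marker-defined cells of placebo 1, 3 and 5 and 1157, 1107 and 971 CPM in those of EPO 2, 4 and 6. Matched cells of the same mice had 233, 440.6, 51.2, 241, 418 and 262 CPM. Every mouse but placebo 3, with its 2 cells of each kind, was thus higher in the marker-defined cells. The log2 fold change was 2.07 ± 0.24 (SE) in edgeR, with an adjusted p of 1.66e-06. It was 1.37 ± 0.53 and did not pass (adjusted p = 0.282) when cells were also matched on mitochondrial share. For Hlf, a PAR-domain transcription factor, the mean over 5 mice was 514 ± 126 CPM (SD) against 110 ± 61.0 CPM, with a log2 fold change of 2.32 ± 0.27 (SE; edgeR adjusted p = 1.66e-06).

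Slc17a6 was the largest rise among the 12 leading genes. Marker-defined cells had 236, 0 and 140 CPM in placebo 1, 3 and 5 and 115, 183 and 252 CPM in EPO 2, 4 and 6. Matched cells had 0, 0, 25.6, 7.76, 61.0 and 35.7 CPM, so the classes did not overlap in the 5 mice with enough cells. The log2 fold change was 2.95 ± 0.46 (SE; edgeR adjusted p = 0.000174). Matched cells were required to hold Slc17a7 and marker-defined cells were not, but with only the marker-defined cells that held Slc17a7 the value was 3.48 (adjusted p = 0.00506). Against all other Slc17a7-positive cells, without matching for depth, it was 1.90 and did not pass (adjusted p = 0.214). Without the 3 barcodes it fell below the filter on low counts and was not tested.

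Other leading genes that were higher encode membrane and signaling proteins. Ptprt, a receptor tyrosine phosphatase of neuronal adhesion, rose by a log2 fold change of 2.41 ± 0.35 (SE), and Cit, the citron kinase gene, by 2.77 ± 0.46. Edil3, a secreted integrin ligand, had 2.84 ± 0.45 and Nrep, a small neuronal protein linked to regeneration, 2.52 ± 0.41. Vsnl1, a neuronal calcium sensor, Prkacb, a catalytic subunit of protein kinase A, Sparcl1, a secreted matrix protein, and Nap1l5, an imprinted nucleosome assembly protein gene, rose by between 1.18 and 1.54. The imprinted long noncoding RNA Meg3 rose least, by 0.77 ± 0.13, from the highest base: 24747 ± 7388 CPM (SD) against 15584 ± 3721 CPM over 5 mice. These 9 genes, like all leading genes, were picked among those that went the same way in all 5 mice.

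Sema3e and Iqgap2 led the genes that were lower. Sema3e, a secreted guidance cue, had 9.08, 0, 38.2, 57.5, 8.72 and 23.97 CPM in marker-defined cells of placebo 1, 3 and 5 and EPO 2, 4 and 6, against 190 to 279 CPM in matched cells. No mouse overlapped, and the log2 fold change was -2.96 ± 0.40 (SE; edgeR adjusted p = 1.89e-05). Iqgap2, a scaffold of the actin cytoskeleton, had 91.5 ± 56.2 CPM (SD) over 5 mice against 563 ± 238 CPM, with a log2 fold change of -2.50 ± 0.30. The calcium-binding proteins hippocalcin (Hpca) and calbindin (Calb1) had log2 fold changes of -2.02 ± 0.29 and -2.44 ± 0.43. Lmo3, a transcriptional cofactor, had -2.38 ± 0.42.

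Smaller falls concerned the cytoskeleton, receptors and signaling. Arpc2 and Arpc5, subunits of the actin-nucleating Arp2/3 complex, had log2 fold changes of -1.38 ± 0.22 and -1.30 ± 0.23 (SE), and Tmsb4x, which sequesters actin monomers, had -1.08 ± 0.18. Grin2b, an NMDA receptor subunit, had -1.13 ± 0.20, from 1269 ± 313 CPM (SD) in matched cells to 548 ± 249 CPM. Plk2, an activity-regulated kinase, Trim2, a ubiquitin ligase, and Stim2, a calcium sensor of the endoplasmic reticulum, had between -1.54 and -1.30. The 12 leading genes that were lower were picked among genes lower in each of the 5 mice. Of all 169 genes called in either direction, 150 went the same way in every mouse. Of the 24 leading genes in both directions, 20 were tested without the 3 barcodes and all 20 passed again; the other 4 (Slc17a6, Edil3, Lmo3 and Calb1) fell below the filter. When also matched on mitochondrial share, which left that share 3.13 points apart, 17 of 22 tested passed. Fut9, Meg3, Nrep, Tmsb4x and Trim2 did not. With Slc17a7-positive marker-defined cells alone, 12 of 18 passed, and Grin2b, Hpca, Plk2, Stim2, Trim2 and Vsnl1 did not.

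**Figure D4:**
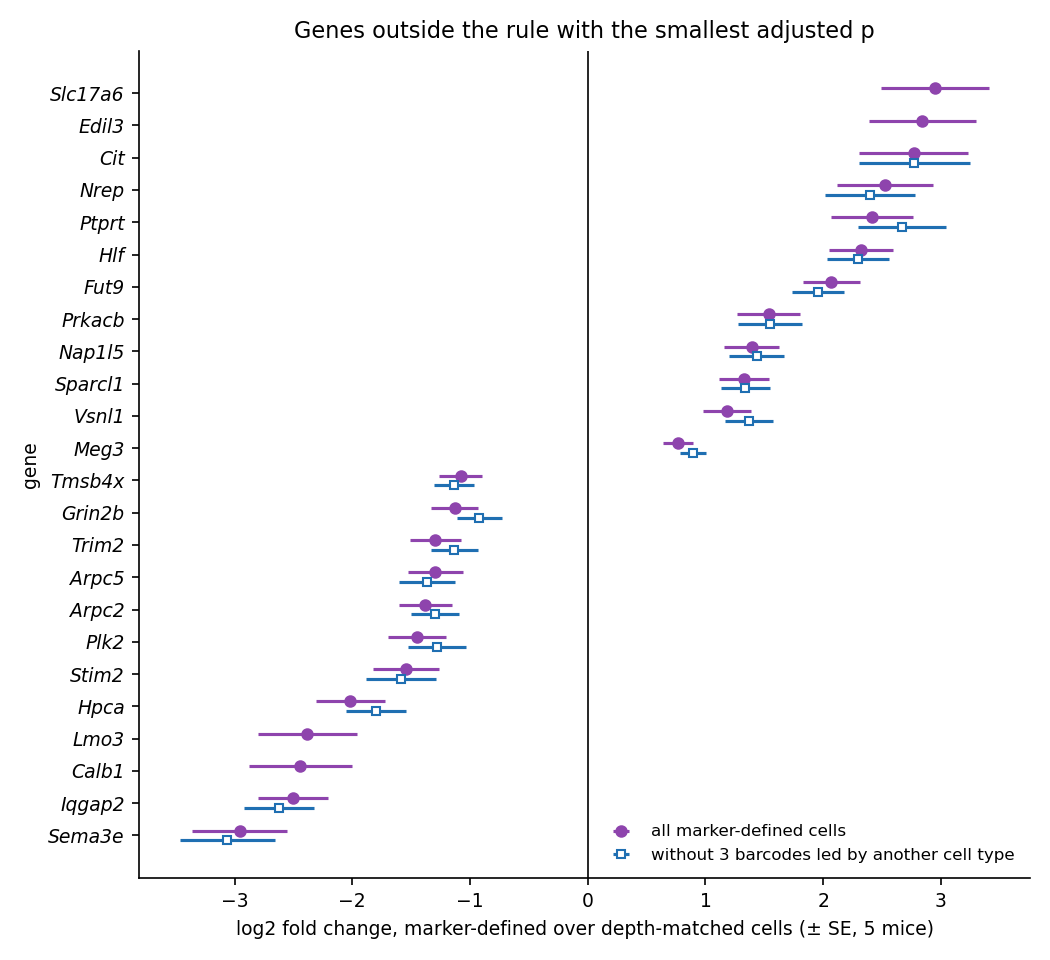
Log2 fold change (± SE, edgeR, 5 mice) of marker-defined over depth-matched cells for the 12 genes with the smallest adjusted p in each direction among those that went the same way in every mouse. Squares give the fit without the 3 barcodes led by another cell type, which 4 genes did not enter; values run from 2.95 for Slc17a6 to -2.96 for Sema3e, and the 2 fits lie close together.

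Zbtb20, a repressor known for specifying hippocampal CA fields, did not pass this test but did so without the 3 barcodes; it was singled out after its values were seen. In marker-defined cells it had 227, 0, 1452, 41.0, 43.6 and 59.9 CPM in placebo 1, 3 and 5 and EPO 2, 4 and 6, so placebo 5 stood apart. Of its 139 UMIs in placebo mice, 135 came from the 3 barcodes, and without them placebo 1 and 5 had 39.0 and 23.7 CPM. Matched cells had 264 to 1537 CPM. The log2 fold change was -2.42 ± 1.11 (SE; edgeR adjusted p = 0.362) with the 3 barcodes and -4.62 ± 0.28 (adjusted p = 1.20e-15) without them, lower in 5 of 5 mice.

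The lists of genes grouped by function are read against the 2.68% of all 2238 genes called higher and 4.87% called lower. Of 12 tested genes of a plasticity list, 0 were higher and 6 lower (Camk2a, Camk2b, Ppp3ca, Ppp3r1, Calm2 and Hpca), with a median log2 fold change of -0.46 beside 0.03 over all genes tested. Camk2b, a subunit of calcium/calmodulin-dependent kinase II, fell by 0.91 ± 0.21 (SE) on the log2 scale and Ppp3ca, the calcineurin catalytic subunit, by 0.92 ± 0.20. Without the 3 barcodes 3 of the 6 were called, and Camk2a was not among them (edgeR adjusted p = 0.0622). Matched cells were required to hold Slc17a7 and marker-defined cells were not. With only the marker-defined cells that held it, Hpca did not pass. Among 8 tested glutamate receptor genes, Gria1, Gria2 and Grin2b were lower and Gria4 was higher. Gria1 had 541 ± 221 CPM (SD) against 1389 ± 249 CPM over 5 mice and fell by 1.29 ± 0.24 on the log2 scale, whereas Gria4 rose by 1.27 ± 0.38 in 4 of 5 mice. These subunits build AMPA receptors. Without the 3 barcodes, 3 of 7 tested glutamate receptor genes were lower and 0 higher. Among 3 tested activity genes 1 was lower, the synaptic scaffold gene Homer1 (-1.11 ± 0.27).

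Ion channel genes went both ways, to be read beside the same 2.68% of all genes called higher and 4.87% called lower. Of 11 tested sodium, calcium and HCN channel genes, Scn1a and Cacnb4 were higher and Scn3b was lower, with a median log2 fold change of -0.28. Scn1a encodes a pore-forming sodium channel subunit and rose by 1.12 ± 0.24 (SE), while Scn3b encodes an accessory subunit and fell by 1.99 ± 0.39 on the log2 scale. Without the 3 barcodes, 2 of 9 tested genes of this list were higher and 0 lower. Of 9 tested potassium channel genes, only Kcna1 was called, higher by 1.12 ± 0.30. Of 14 tested guidance and adhesion genes, 0 were higher and 2 were lower, Sema3e and Epha4, an ephrin receptor gene (-0.76 ± 0.21, lower in 4 of 5 mice). When also matched on mitochondrial share, Gria2, Gria4, Homer1, Cacnb4, Kcna1 and Epha4 of these lists kept their direction but did not pass (edgeR adjusted p between 0.0532 and 0.290). Of 3 tested genes of peptide and relaxin signaling 0 were called, and none of 10 EPO receptor and JAK-STAT genes passed the filter on low counts.

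Of the 10 genes named in the study as marking immature glutamatergic neurons, 4 were tested here, since 4 others are deep-layer genes of the rule, and Dcx and Rmst fell below the filter on low counts. Satb1, a chromatin organizer, and Fut9 were higher, and 0 were lower. Satb1 had 152 ± 69.0 CPM (SD) against 46.1 ± 43.0 CPM over 5 mice (log2 fold change 1.96 ± 0.43; edgeR adjusted p = 0.00289). When also matched on mitochondrial share it was 0.87 ± 0.34 and did not pass (adjusted p = 0.172). Elavl4 and Celf4, RNA-binding protein genes, were at 228 against 219 CPM and at 741 against 685 CPM. Dcx, the classic transcript of newborn neurons, had 14 UMIs in all marker-defined cells and 7 in matched cells. Of 2 tested genes of a newborn neuron list, the microtubule regulator Stmn1 was higher (1.65 ± 0.34). The study chose its 10 genes on cells of these mice, so they are no independent evidence here.

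Regional markers were compared next, where Wfs1, Nts and Cux2 were singled out after their values were seen. Among 8 tested CA1 pyramidal genes, 0 were higher and 2 lower, Crym, a thyroid hormone-binding protein, and the transcription factor gene Neurod6, with a median log2 fold change of -0.73. Neither passed when also matched on mitochondrial share (edgeR adjusted p = 0.0532 and 0.0920). Summed over all 11 CA1 genes, marker-defined cells had 1157 to 3643 CPM per mouse and matched cells 3151 to 4141 CPM, and in EPO 6 alone marker-defined cells were higher. Wfs1, a strong CA1 marker, was found in 10 marker-defined cells, whose median depth was 20118.5 UMIs, and in 24 matched cells. Its summed level was alike, at 95 UMIs in each class (183 CPM in marker-defined and 178 CPM in matched cells). Single deep cells of EPO 6 and placebo 1 held 46 and 38 of the UMIs in marker-defined cells. Of 8 subicular genes 1 was tested, Slc17a6. The 8 genes summed to 0 to 875 CPM per mouse against 0 to 155 CPM in matched cells, and neurotensin (Nts), a peptide of the subiculum, gave 72 UMIs in 12 cells against 6 UMIs in 5 cells. Deep-layer-like cells held more Nts, at 252.5 ± 107.7 CPM (SD) over 5 mice against 162 ± 152 CPM in marker-defined cells. Cux2, a gene of upper cortical layers, was present in 19 marker-defined cells, 1 matched cell and 11.3% of oligodendrocyte-like cells. None of its list of 11 superficial layer genes was tested; the list summed to 168 UMIs against 111, and 7 marker-defined and 8 matched cells held at least 3 of its genes. Bcl11b, a layer 5 and CA1 transcription factor gene, fell by 1.39 ± 0.26 (SE) on the log2 scale.

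Markers of glia moved with the 3 barcodes. The 10 oligodendrocyte genes summed to 575 to 42781 CPM in marker-defined cells and 460 to 4128 CPM in matched cells, with 0 of the 10 at 0 in either. Mbp, a myelin gene, was called higher (1.32 ± 0.37) but had a log2 fold change of -0.03 ± 0.30 without the 3 barcodes. Of 4 tested astrocyte genes 0 were called, and the list summed to 267 to 2331 CPM against 176 to 4933 CPM. Microglial genes summed to at most 127 CPM in marker-defined cells and 264 CPM in matched cells.

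Mitochondrial transcripts took a somewhat larger share of the marker-defined cells in most mice. The median share was 17.3%, 29.1% and 5.38% in placebo 1, 3 and 5 and 23.4%, 12.4% and 7.30% in EPO 2, 4 and 6, against 14.0%, 10.8%, 6.28%, 17.1%, 12.8% and 4.88% in matched cells. It was higher in 4 of 6 mice, by 4.84 percentage points on average (exact permutation test by sign flips, p = 0.125, smallest possible p 0.031). Placebo 3 gave the widest gap, and without it the mean was 2.145 points. Of 9 tested mitochondrial genes 1 was called, mt-Nd6 (0.96 ± 0.27), and of 71 nuclear genes of oxidative phosphorylation and 32 of cytosolic ribosomal proteins 0 were called. Thinned to 1000 UMIs, marker-defined cells had 588 ± 66.2 genes (SD, n = 6) and matched cells 625 ± 30.3, lower in 4 of 6 mice, by 37.1 genes on average (exact permutation test, p = 0.156); without thinning the median was 1690 against 1685 genes.

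Deep-layer-like cells, which carry at least 3 of the 7 deep-layer genes, were the second class compared, with 107 cells. They were deeper, with a median of 9052 UMIs, and were not matched for depth. Of 3245 genes tested outside the rule, 136 passed (4.19%), 70 higher (2.16%) and 66 lower (2.03%) in marker-defined cells, and 109 were higher and 76 lower without the 3 barcodes. Mef2c, a transcription factor of postmitotic neurons, differed most clearly, with a log2 fold change of 3.14 ± 0.24 (SE; edgeR adjusted p = 6.71e-09). Against the depth-matched cells Mef2c was also called, but EPO 6 alone had 464 CPM there and the other mice at most 52.3 CPM. Car10, a carbonic anhydrase-related protein gene, had 3.24 ± 0.43, and the RNA-binding Arpp21, the amidating enzyme gene Pam, the calcium sensor gene Ncald and the ubiquitin ligase gene Hecw1 had between 1.16 and 1.74.

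Several genes that set the marker-defined cells apart from matched cells also did so here. Hpca had a log2 fold change of -1.83 ± 0.22 (SE) against deep-layer-like cells, Iqgap2 -1.95 ± 0.28, Calb1 -2.50 ± 0.40 and Sema3e -2.20 ± 0.38. Edil3 and Fut9 were higher, by 2.02 ± 0.38 and 1.00 ± 0.21. Both comparisons use the same marker-defined cells. The classes set against them also overlap, since 12 of the 76 matched cells held at least 3 deep-layer genes. Deep-layer-like cells were not required to lack the 6 marker genes. Slc17a6 was not called against deep-layer-like cells, which had 21.3, 46.4 and 43.0 CPM in placebo 1, 3 and 5 and 80.5, 194 and 169 CPM in EPO 2, 4 and 6 (edgeR adjusted p = 0.104). Among 9 tested mitochondrial genes, 6 were higher and 0 lower, with a median of 0.70 beside 0.01 over all genes. Without the 3 barcodes, 9 of these 9 were higher. Among 17 guidance and adhesion genes, the teneurin genes Tenm2 and Tenm3 were higher (0.93 ± 0.20 and 1.26 ± 0.29) and Sema3e was lower. Qk, an RNA-binding protein gene of myelinating cells, was called higher, but not without the 3 barcodes (edgeR adjusted p = 0.278). Slc4a4, a bicarbonate transporter gene of astrocytes, was 1 of 4 tested astrocyte markers called higher, at 2.69 ± 0.55 (adjusted p = 0.00556) with and 2.72 ± 0.52 (adjusted p = 0.000518) without the 3 barcodes.

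Within the marker-defined cells, EPO and placebo mice differed in 10 of 2603 genes (0.384%; edgeR, 2 placebo against 3 EPO mice), all lower with EPO, and 168 genes had an unadjusted p under 0.05. The 10 genes were Cryab, S100b, Cnp, Gsn, Tspan2, Enpp2, Hist1h2bc, Tppp3, Mobp and Zbtb20, all given here because they were few. Cnp and Mobp are myelin genes, Enpp2 and Tspan2 are strongly expressed by oligodendrocytes, and S100b is a gene of glia. Cnp had 1379 and 293 CPM in placebo 1 and 5 and 24.6, 26.1 and 11.98 CPM in EPO 2, 4 and 6, with a log2 fold change of -5.29 ± 0.73 (SE; edgeR adjusted p = 0.0219). For each of the 10 genes, between 89.5% and 100% of the placebo UMIs came from the 3 barcodes led by another cell type. Without them 0 of 1959 genes passed (25 at an unadjusted p under 0.05). DESeq2 called 23 genes, all lower with EPO, with the 3 barcodes in.

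**Figure D5:**
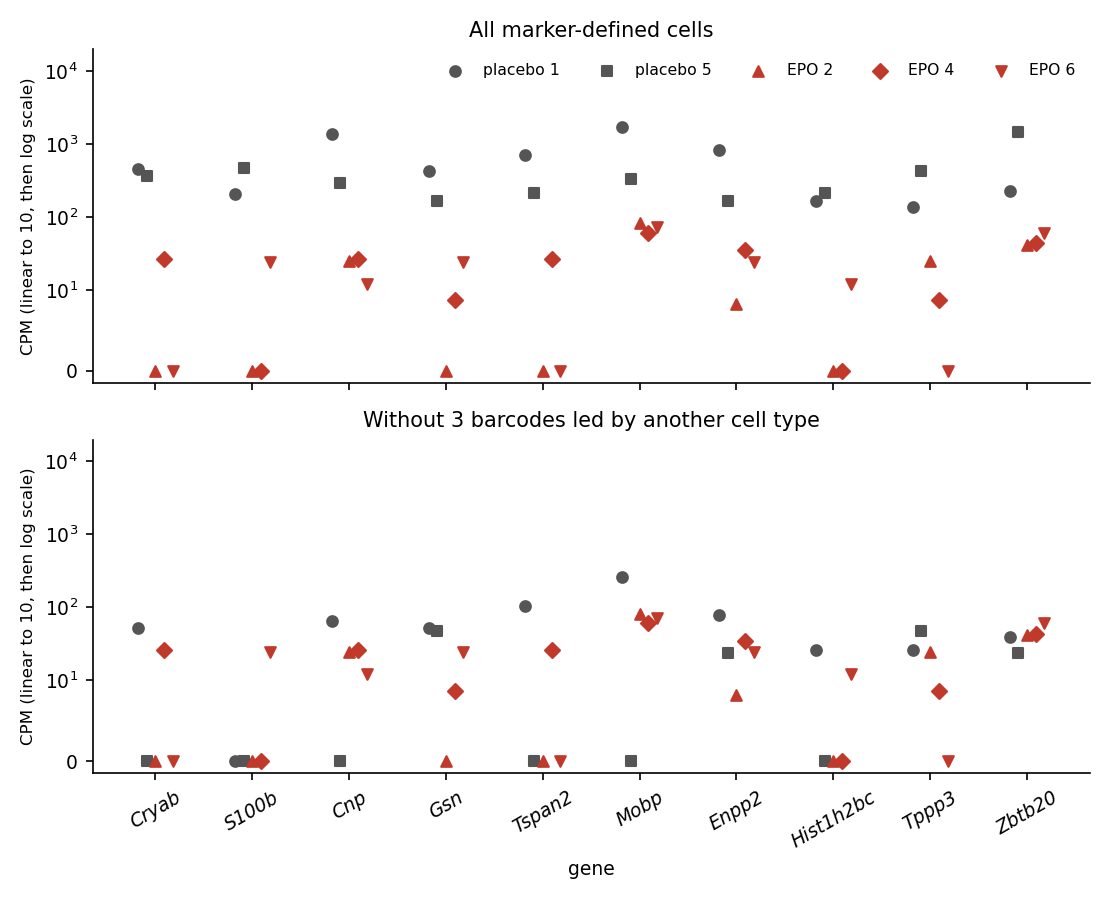
CPM (linear to 10, then log scale) in the marker-defined cells of 2 placebo and 3 EPO mice for the 10 genes called between treatments, with all cells (top) and without the 3 barcodes led by another cell type (bottom). Both placebo mice lie above the 3 EPO mice for each gene in the top panel; Cnp falls from 1379 to 65.1 CPM in placebo 1 when the barcodes are left out.

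The marker genes themselves chose the cells in both groups, so their levels between treatments are given as a description. Log2 fold changes for EPO over placebo were 0.56 ± 0.68 (SE) for Rxfp1, 0.22 ± 0.37 for Tshz2, 0.10 ± 0.50 for Tshz3, 0.22 ± 0.62 for Garnl3 and 1.21 ± 0.67 for Plekha7, and Ipcef1 was below the filter. Of these, Rxfp1, Tshz2, Tshz3 and Garnl3 changed sign without the 3 barcodes, to between -0.29 and -0.02. No tested gene of the lists for plasticity, glutamate receptors, hypoxia, activity or oxidative phosphorylation was called between treatments. In simulated counts of these libraries, with the 3 barcodes in, 4-fold changes were called in 62.6% of changed genes and 2-fold changes in 0%. A 2-fold effect of EPO was thus not detectable in this comparison of 2 placebo and 3 EPO mice. The EPO effect differed between marker-defined and matched cells in 5 of 3469 genes (0.144%), and in 0 without the 3 barcodes (124 at an unadjusted p under 0.05).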

How the data were processed

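The authors deposited UMI counts per gene and barcode from Drop-seq of CA1, 1000 barcodes for each of 6 mice over 20234 genes, with empty entries read here as 0. The submitters' processing notes name bcl2fastq 2.15, STAR 2.4.0 and mm10. The deposited counts were not normalized. Marker-defined cells, matched cells (optimal assignment on log UMI total within a mouse), deep-layer-like cells and oligodendrocyte-like cells (at least 4 of 6 oligodendrocyte genes) were chosen as described above. The members, markers and gene lists were chosen with earlier results of these data known, and the rule for barcodes led by another cell type (over 5% of UMIs from oligodendrocyte genes, or at least 3 of 4 ependymal genes) was chosen after seeing the data. Samples were grouped by the treatment in their labels. The mouse was the replicate.

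Counts were summed per mouse and class for mice with at least 5 marker-defined cells and tested with edgeR 4.0.16 in R 4.3.3 (TMM, default filter on low counts, quasi-likelihood test, Benjamini-Hochberg adjustment at 5%). The 16 genes of the rules stayed in library sizes but were not tested between classes. Marker-defined cells gave 11234 to 121820 UMIs per mouse. Shares, mitochondrial shares and genes per cell were compared over mice by two-sided exact permutation tests (Python 3.11.15, scipy 1.17.1, numpy 2.4.6), and intervals are exact Clopper-Pearson intervals. Genes named are the 12 with the smallest adjusted p in each direction among those moving alike in every mouse, 5 per direction between treatments, the genes of the rule and up to 4 examples of each list, with exceptions stated. Alternatives were DESeq2 1.42.0, other size factors, no filter, no mouse block, the D number as a block, other matching, stricter markers, thinning to 1000 UMIs and leaving out each mouse. The tests were run on simulated data: 4-fold changes were recovered in 100% of changed genes between marker-defined and matched cells, 62.6% between treatments and 32.2% for the difference of treatment effects. A doublet caller was not run. Of the genes called, 1 was counted but is not reported here.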

Additional observations from a re-analysis of the deposited data

Results flagged for a closer look

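The effect of EPO differed between marker-defined and matched cells for 5 genes, of which 4 are described here, by a test of the difference itself (edgeR, interaction of treatment and class, 5 mice), those 4 being genes of myelinating cells or strongly expressed by them. The difference of the log2 EPO effects was -5.57 for Enpp2 (adjusted p = 0.00379), -3.95 for Mal, -4.43 for Mag and -6.78 for Anln. In marker-defined cells of placebo mice, 321 of 335 UMIs of Mal came from the 3 barcodes led by another cell type, and over the 4 genes the share was 92.4% to 100%. Without these barcodes the value was 0.43 for Mal, which did not pass, and Enpp2, Mag and Anln were not tested.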

How the results depend on the processing

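The difference in share of filtered barcodes between EPO and placebo was 1.04 to 4.04 points when 1 mouse was left out and -0.0470 with at least 4 marker genes. The share among glutamatergic cells ranged from -0.0398 (without EPO 2) to 13.0 points and was -2.56 with at least 4 marker genes. The mitochondrial difference ranged from 2.145 to 5.99 points, and passed at 7.502 with at least 4 marker genes and at 6.59 against unmatched cells (exact permutation p = 0.031 for both). Genes at equal depth ranged from -47.8 to -14.3 and passed at -66.5 against unmatched cells.

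The 169 genes called against matched cells became 278 without the filter on low counts (52.2% higher, against 35.5%), 85 by DESeq2, 98 without the mouse block, 24 with at least 4 marker genes, 8 without cells holding 3 glial markers, 74 when also matched on mitochondrial share, 258 unmatched, 45 in Slc17a7-positive cells and 8 after thinning to 1000 UMIs. Leaving out 1 mouse gave 77 (EPO 2) to 180, with 94 without placebo 5 and 106 without EPO 4. The 136 called against deep-layer-like cells became 320 without the filter, 67 without the block and 8 after thinning, and 48 (EPO 2) to 132 with 1 mouse left out, with 86 without placebo 5 and 90 without EPO 6. Between treatments the 10 became 212 without the filter, 23 by DESeq2, 0 without glial-marker cells or the 3 barcodes, 1 after thinning, and 0 (without EPO 2 or EPO 6) to 120 (without placebo 1) with 1 mouse left out, with 96 without placebo 5. For the difference of treatment effects the 5 became 10 without the filter, 3 by DESeq2, 2 with the D number as a block, 9 when also matched on mitochondrial share, 16 unmatched, 9 without deep-layer-like cells, 16 in Slc17a7-positive cells, 1 after thinning, 0 without glial-marker cells or the 3 barcodes, and 2 (EPO 6) to 24 (placebo 5) with 1 mouse left out, with 14 without placebo 1 and 3 without EPO 4. The cause of these shifts was not tested, except that thinning, the glial filter and the need for 4 marker genes left few genes or mice to test. Against matched cells, at least 4 marker genes left 623 genes in 2 mice. Of the 169 genes, 92 were tested there, 85 kept their direction and 14 passed.

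Gria2 turned to 0.030 and Camk2a to 0.12 with at least 4 marker genes, Crym to 0.14 without glial-marker cells and Mbp to -0.032 without the 3 barcodes. Between treatments Rxfp1 turned to -0.17 without placebo 1, -0.03 without EPO 2, -0.49 without glial-marker cells and -0.016 without the 3 barcodes, up to 2.21 without placebo 5. Tshz2 turned to -0.21 without the 3 barcodes and -0.023 after thinning. Tshz3 turned to -0.24 without placebo 5, -0.12 without EPO 2, -0.02 without EPO 4 and -0.29 without the 3 barcodes, up to 0.73 without placebo 1, and Garnl3 to -0.39, -0.16 and -0.24 without placebo 5, EPO 2 and the 3 barcodes, up to 1.73 without placebo 1. For the difference of treatment effects Mal turned to 0.43 without the 3 barcodes.

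No paired analysis was possible because EPO and placebo mice share no number; classes of cells were compared within mice, and the D number was run as a block. With at least 4 marker genes the treatment fits had mice of 1 group only and were not run, and the 13 cells of at most 1000 genes could not be fitted, since 1 mouse alone held 5 of them. With 5 mice of 9 to 23 cells, 0% of simulated 2-fold treatment effects were called, against 51.4% of 2-fold differences between marker-defined and matched cells.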

Other observations

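Further subunits of the Arp2/3 complex, which nucleates branched actin, were looked up after the values of Arpc2 and Arpc5 were seen, so those 2 are no part of any support. Of 9 subunit genes, 7 were tested against matched cells, those 2 included. Among the others, Actr2 and Actr3 were called lower, beside 4.87% of all genes tested. Arpc1a, Arpc3 and Arpc5l did not pass (log2 fold changes -0.63, -0.65 and -0.18). Actr2 had -1.05 ± 0.23 (SE) and Actr3 -1.08 ± 0.28 in 5 of 5 mice (edgeR adjusted p = 0.00276 and 0.0117). Without the 3 barcodes, Arpc1a was called lower as well (-0.73 ± 0.24, edgeR adjusted p = 0.0399), and Arpc3 and Arpc5l were not tested. Against deep-layer-like cells Actr2 and Actr3 were also called lower (-1.08 ± 0.20 and -1.01 ± 0.26), beside 2.03% of all genes tested. Arpc1a, Arpc3 and Arpc5l did not pass there either. Both comparisons use the same marker-defined cells.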
